A study of Mus musculus with 6 samples.

Results

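The 6 genes described here encode 4 receptors of the TREM family (triggering receptors expressed on myeloid cells) and their signaling adaptors: Treml1, Treml2, Trem1, Trem2, Tyrobp (the adaptor DAP12) and Hcst (the adaptor DAP10). They were taken by symbol from the deposited table of 14975 genes, and all 6 were listed. The set was chosen by gene family with the FPKM values of these 6 libraries already known, those of Tyrobp in pre-AML in particular, so their differences between the groups are given as a description without a test. Platelet RNA of 3 control and 3 pre-AML libraries was analysed. Control mice were irradiated recipients of normal bone marrow. Pre-AML mice were irradiated recipients, 1 week after transplantation, of cells made by retroviral expression of the oncogene MLL-AF9, with GFP, in sorted stem and progenitor cells. The methods describe a primary transfer after lethal irradiation and a secondary transfer of GFP-positive cells after sub-lethal irradiation, and do not say which gave these libraries, while the results of the study name sub-lethal irradiation for the pre-AML recipients at this time. The labels give the C57BL/6 background for all, and the methods name young adult female mice, with CD45.1 or C57BL/6 recipients. The labels call the groups WT and AML, give no week, mention 2 replicates and pools of 3 to 4 mice, while the methods state 3 independent mice, so the spread between libraries may be that of animals or of pools. Platelets were purified by depleting cells positive for CD45 or Ter119, markers of leukocytes and of erythroid cells.

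TREM receptors are immunoglobulin-like proteins of the cell surface. TREM1 amplifies inflammatory responses of neutrophils and monocytes, and TREM2 binds lipids and lipoproteins on macrophages, microglia and osteoclasts. Both have short cytoplasmic tails and signal through DAP12, whose immunoreceptor tyrosine-based activation motif (ITAM) recruits the kinase SYK. DAP10 carries a shorter tyrosine motif, YINM, which recruits phosphoinositide 3-kinase and GRB2, and is best known as the partner of the natural killer receptor NKG2D. TLT1, the product of Treml1, is a platelet and megakaryocyte protein that is stored in α-granules, reaches the surface on activation, binds fibrinogen and carries an inhibitory tyrosine motif (ITIM). TLT2, the product of Treml2, is known from B cells and myeloid cells.

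The signaling motifs set these members apart, and the coding bases of 3 of them are shown because the levels below separate genes with different motifs. The reading frames of the principal transcripts in GENCODE release M21 were searched for tyrosine codons in the spacing of each motif. The ITAM spacing was found in Tyrobp and in 0 of the other 5 members. The YINM spacing was also met at codon 108 of Treml2, and the ITIM spacing from codon 90 of Tyrobp, on the tyrosine that opens its ITAM at codon 92, and such matches are descriptions of the letters only. The bases below are written 5′ to 3′ with the tyrosine codons in capitals.
Tyrobp, ITAM: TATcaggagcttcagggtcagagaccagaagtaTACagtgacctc
Hcst, YINM: TACatcaacatg
Treml1, ITIM: gtgacaTATgccacagtt
The Tyrobp stretch lies in exons 4 and 5 of 5, between 30415670 and 30417382 on the plus strand of chromosome 7 of GRCm38. The Hcst stretch is in exon 4 of 4 at chr7:30417821-30417832 on the minus strand, and the Treml1 stretch is in exon 6 of 6 at chr17:48366812-48366829 on the plus strand.

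The 4 receptor genes are neighbors on the plus strand of chromosome 17 of GRCm38. Trem1 lies at chr17:48232768-48246924, Treml2 at chr17:48299498-48312533, Trem2 at chr17:48346401-48354147 and Treml1 at chr17:48359916-48367176, so the locus spans 134.4 kb and Trem2 ends 5.8 kb before Treml1 starts. Tyrobp (chr7:30413760-30417585, plus strand) and Hcst (chr7:30417712-30419854, minus strand) face each other with their 3′ ends 126 bases apart. The genes of that pair do not overlap in the annotation.

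For Treml1 and Hcst, the receptor and the adaptor with the highest levels in control platelets, the 250 bases before and 50 bases after the start are shown from the RefSeq table on GRCm38.p6, which held 4 of the 6 members. Capitals mark GGAAGT, a string found in part of the ETS-family sites, which reads ACTTCC where it lies on the other strand. GATAA, a string found in part of the GATA-family sites, was searched on both strands in the same way. Sites of either family that differ from these strings, such as those with only GGAA or GATA, were not searched.
Treml1, chr17:48359666-48359965, plus strand: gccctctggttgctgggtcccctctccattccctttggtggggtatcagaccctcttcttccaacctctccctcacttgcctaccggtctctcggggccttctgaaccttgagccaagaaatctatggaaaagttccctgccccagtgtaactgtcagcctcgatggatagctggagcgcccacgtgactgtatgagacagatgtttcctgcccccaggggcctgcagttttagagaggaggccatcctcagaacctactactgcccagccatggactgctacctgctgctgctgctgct
Hcst, chr7:30419805-30420104, minus strand: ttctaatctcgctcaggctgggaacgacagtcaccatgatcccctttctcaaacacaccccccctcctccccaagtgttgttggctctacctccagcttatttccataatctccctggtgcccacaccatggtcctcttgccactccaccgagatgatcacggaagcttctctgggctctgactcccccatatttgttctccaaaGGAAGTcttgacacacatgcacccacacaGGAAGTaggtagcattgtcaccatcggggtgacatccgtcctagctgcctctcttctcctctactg
The Hcst promoter held GGAAGT at 2 places, which begin at positions -45 and -16 from the start, and that of Trem1 held it at 1 place, at -109. GGAAGT was not found in the windows of Treml1 and Trem2, and GATAA was found in none of the 4 windows. Of 32851 promoters in the table, 23.8% held GGAAGT and 25.4% held GATAA.

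Depth and library differences bear on every value below. The authors deposited FPKM values (reads scaled to gene length and library size), from which whole reads could be recovered with gene lengths for 86.0% of values, at 11935826 to 17777952 reads per library. Pre-AML 3 stood apart, with Spearman correlations across genes of 0.842 to 0.880 against the other libraries, which correlated with each other at 0.962 to 0.973. Its FPKM values were divided by a library size 1.312 times its reads on listed genes, against 0.983 to 1.014 times in the other 5 libraries. All 14 platelet markers of a fixed list, such as Pf4 and Gp9, were listed above 0 in every library. Their summed level was 91411 to 115150 FPKM over the controls and 92389, 93687 and 62429 FPKM in pre-AML libraries 1 to 3. Pf4 alone had 58030 to 79255 FPKM over the controls and 60066, 59345 and 38150 FPKM in pre-AML libraries 1 to 3. The FPKM total of all listed genes was 376148 in pre-AML 3 and 508605 to 541784 in the other 5 libraries. The median log2 difference of the 14 markers was -0.148 as deposited. It was 0.004 with every library rescaled to the same FPKM total, against 0.081 for all genes tested. In such bulk libraries, fewer cells of a type and less RNA per cell cannot be told apart.

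Control platelets held mRNA of all 4 receptors and of DAP10, and next to none of DAP12. Treml1 had 888.7 ± 56.9 FPKM (SD, n = 3) and ranked 66th among the 14975 genes by control mean. Hcst had 122 ± 2.96 FPKM and ranked 332nd, Treml2 had 66.8 ± 7.22 FPKM, Trem1 had 23.6 ± 1.66 FPKM and Trem2 had 11.1 ± 2.04 FPKM (SD, n = 3 each). Tyrobp had 0.262 ± 0.234 FPKM (SD, n = 3) and ranked 6758th. The order Treml1, Hcst, Treml2, Trem1, Trem2 held in all 6 libraries without overlap, since the lowest value of each gene was above the highest of the next. The closest neighbors were Trem1, with 15.8 FPKM or more, and Trem2, with at most 13.7 FPKM.

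The place of Trem2 in this order depended on the gene length. Recovered reads were whole with the union of all exons, which is 4946 bases for Trem2 and includes a transcript with a retained intron, while its principal transcript has 1088 bases. Divided by the length of the principal transcript (an alternative added once the data had been seen), the control means were 1021 FPKM for Treml1, 199.7 FPKM for Hcst, 156.8 FPKM for Treml2, 50.3 ± 9.26 FPKM for Trem2 and 23.6 ± 1.66 FPKM for Trem1 (SD, n = 3). Trem2 was then above Trem1 in all 6 libraries, the lowest Trem2 value being 37.1 FPKM and the highest Trem1 value 26.1 FPKM. How the Trem2 reads fall on its exons was not analysed here.

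**Figure D1:**
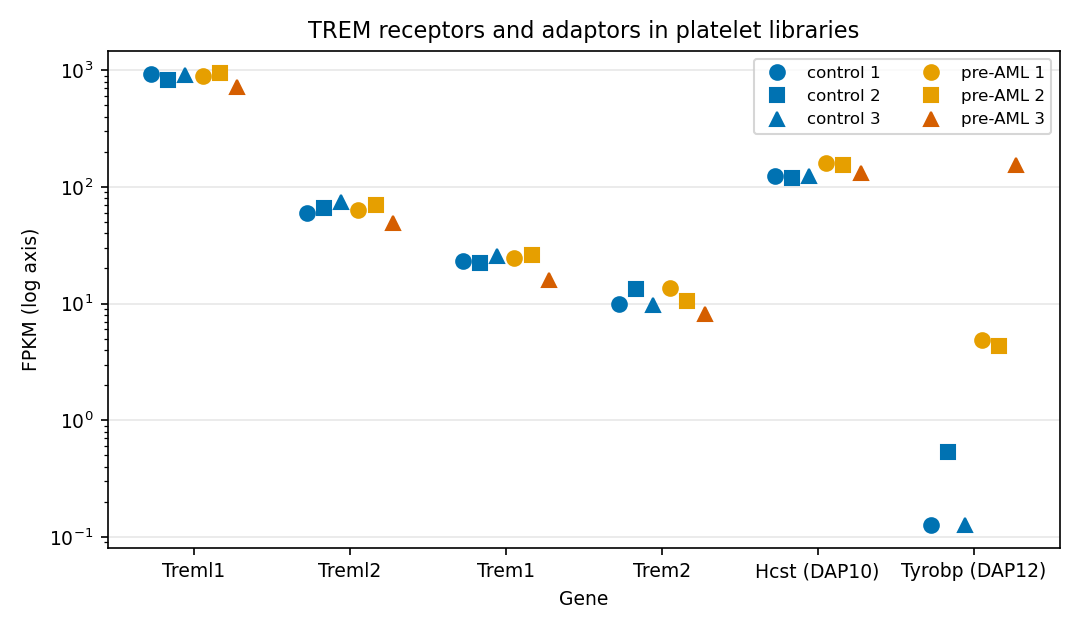
FPKM (log axis) of the 6 genes in each of the 6 libraries, with blue symbols for control, light orange for pre-AML 1 and pre-AML 2 and dark orange for pre-AML 3. The 4 receptors and Hcst keep their order in every library, and Tyrobp goes from at most 0.533 FPKM in control to 4.85, 4.37 and 153 FPKM in pre-AML.

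Listed genes of the receptor locus were higher in control platelets than most genes on either side. From Trem1 to Treml1 the table lists 7 genes, of which 6 had a control mean of at least 1 FPKM. Besides the 4 receptors these were Trem3, with 4.43 ± 0.367 FPKM, and Treml4, with 2.29 ± 0.558 FPKM (SD, n = 3 each), while B430306N03Rik had 0.49 FPKM. Of 7 listed genes in the flanks, 1 had a control mean of at least 1 FPKM, Oard1, which removes ADP-ribose from proteins, with 13.5 FPKM. Nfya, the nearest listed gene beyond Treml1, had 0.121 FPKM. On chromosome 7, the listed neighbors Nfkbid and Aplp1 stood at 0.0121 and 0.00928 FPKM in control beside 122 FPKM for Hcst.

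**Figure D2:**
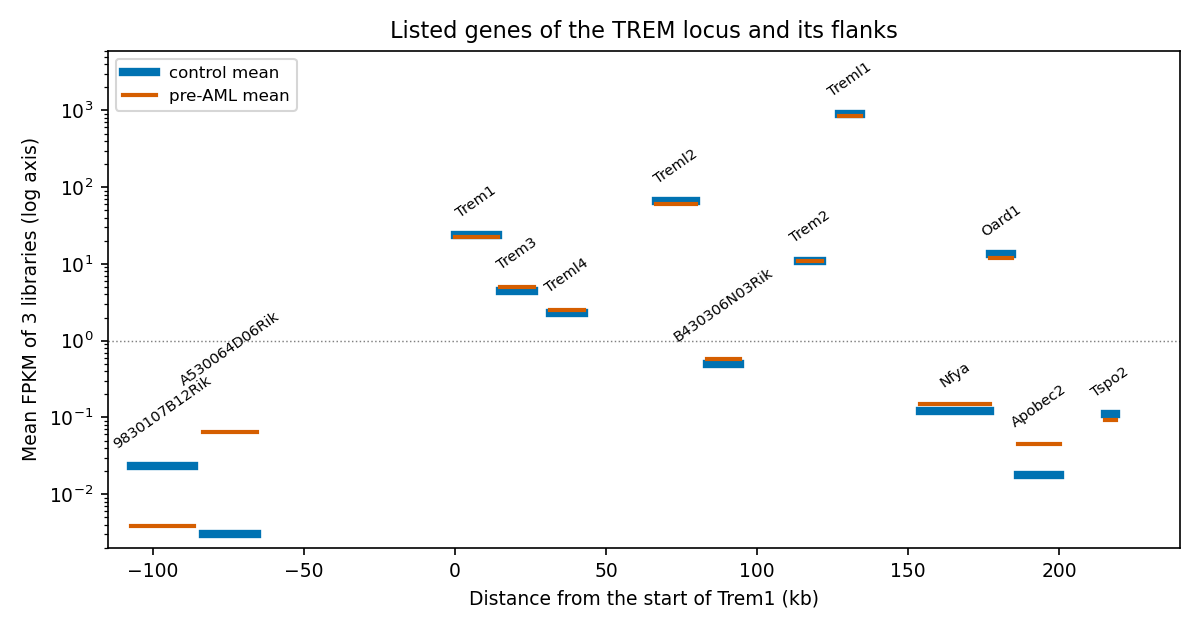
Mean FPKM of 3 control libraries (blue, thick) and 3 pre-AML libraries (orange, thin) on a log axis for listed genes of the TREM locus, each drawn over its extent as distance from the start of Trem1 in kb. A mean of 0 is drawn at 0.003 FPKM and the dotted line is at 1 FPKM. Of the genes drawn outside the locus only Oard1 is above that line.

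Treml1 was the most abundant member in every library. Its level was 929, 824 and 913 FPKM in control libraries 1 to 3 and 885, 941 and 724 FPKM in pre-AML libraries 1 to 3. The groups overlapped, with pre-AML 2 highest and pre-AML 3 lowest. The log2 difference of pre-AML minus control was -0.07 on the log2(FPKM + 1) scale (95% interval -0.40 to 0.26), with the standard error 0.14 from limma-trend fitted to all genes. It was 0.04 (95% interval -0.17 to 0.25) without pre-AML 3 and 0.10 (-0.10 to 0.30) with every library rescaled to the same FPKM total. On that scale pre-AML 3 was the highest of the 6 libraries, at 961.6 FPKM, so the sign for Treml1 turned with the scaling.

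Treml2, Trem1 and Trem2 shared with Treml1 the overlap of groups, the lowest deposited value in pre-AML 3 and a sign that turned with the scaling. Unlike Treml1, they did not have pre-AML 3 as the highest library with equal FPKM totals. Treml2 had 60.1, 65.8 and 74.4 FPKM in the controls and 64.0, 70.7 and 49.1 FPKM in pre-AML libraries 1 to 3. Trem1 had 23.1, 22.2 and 25.4 FPKM in the controls and 24.7, 26.0 and 15.8 FPKM in pre-AML libraries 1 to 3. Trem2 had 9.96, 13.4 and 9.80 FPKM in the controls and 13.7, 10.4 and 8.16 FPKM in pre-AML libraries 1 to 3. In each of the 3 genes the groups overlapped and pre-AML 3 was the lowest library. Pre-AML 3 was also the lowest of the 6 libraries in 43.8% of the 4412 genes tested, which averaged 1 FPKM or more. The log2 differences were -0.13 (95% interval -0.52 to 0.26) for Treml2, -0.11 (-0.56 to 0.34) for Trem1 and -0.05 (-0.51 to 0.42) for Trem2. Rescaled to equal FPKM totals they were 0.04, 0.05 and 0.11, and without pre-AML 3 they were 0.02, 0.11 and 0.12, so the signs of these 3 receptors turned as well. The rescaling moved the median log2 difference of all 4412 genes from -0.055 to 0.081. The level of Treml1 relative to Treml2 was 12.3 to 15.5 in the controls and 13.3 to 14.7 in the pre-AML libraries, pre-AML 3 included.

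Hcst, the DAP10 gene, was higher in each pre-AML library than in each control. It had 124, 118.8 and 124 FPKM in control libraries 1 to 3 and 159, 153 and 132 FPKM in pre-AML libraries 1 to 3. The groups did not overlap, and on the deposited scale the gap between the highest control and pre-AML 3 was smaller than that to the other pre-AML libraries. With equal FPKM totals pre-AML 3 was instead the highest library, at 175.8 FPKM. Pre-AML 1 and pre-AML 2 then had 149.0 and 150.1 FPKM and the controls 113.9 to 119.8 FPKM. The recovered reads were 1051, 1207 and 1064 in the controls and 1527, 1665 and 2231 in the pre-AML libraries. The log2 difference was 0.27 (standard error 0.13, 95% interval -0.03 to 0.57). It was 0.35 (0.13 to 0.57) without pre-AML 3 and 0.44 (0.22 to 0.67) with equal FPKM totals. Treml1 relative to Hcst was 6.93 to 7.49 in the controls and 5.47 to 6.16 in the pre-AML libraries, a ratio within each library that does not depend on scaling. Klrk1, the NKG2D gene and the known partner of DAP10, had at most 0.0329 FPKM over the controls and 0.209, 0.107 and 0.467 FPKM in pre-AML libraries 1 to 3. Klrk1 was named after its values were seen.

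**Figure D3:**
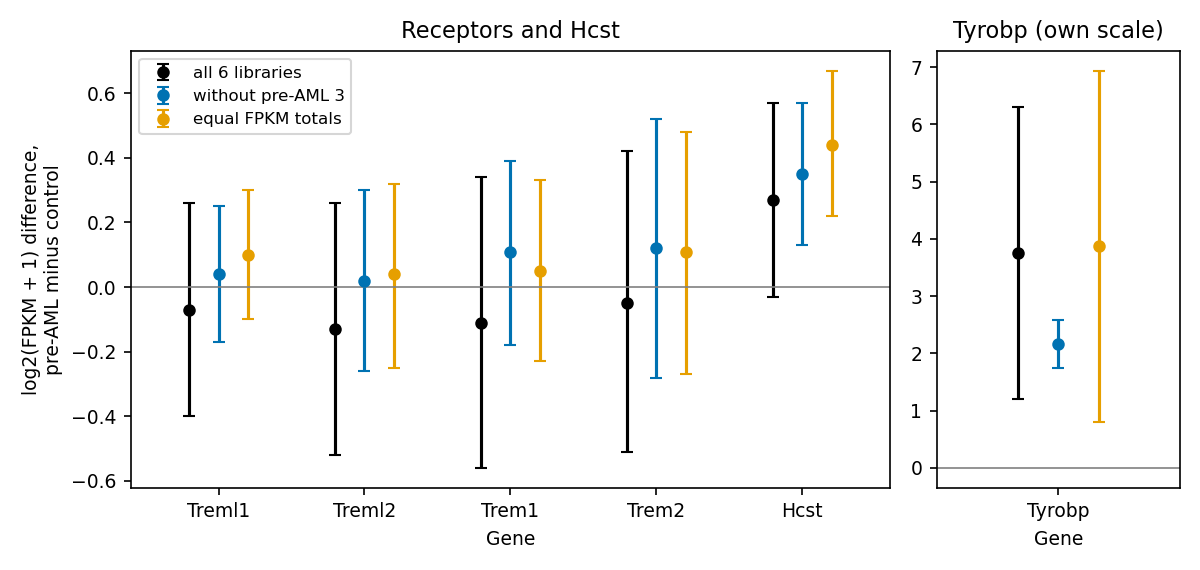
Difference of mean log2(FPKM + 1), pre-AML minus control, with 95% intervals from limma-trend, for the 4 receptors and Hcst (left) and Tyrobp (right, own axis), with all 6 libraries, without pre-AML 3 and with every library rescaled to the same FPKM total. The receptors lie near 0 with signs that turn between settings, Hcst lies between 0.27 and 0.44 and Tyrobp between 2.17 and 3.88.

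Tyrobp, the DAP12 gene, was the member with the largest spread. It had 0.128, 0.533 and 0.126 FPKM in control libraries 1 to 3 and 4.85, 4.37 and 153 FPKM in pre-AML libraries 1 to 3. All 3 pre-AML libraries were above all 3 controls, and pre-AML 3 was far above the other pre-AML libraries. The recovered reads were 1, 5 and 1 in the controls and 43, 44 and 2386 in the pre-AML libraries. Against the 7 pooled control reads, the ratio of levels was 17.4 (95% exact interval 7.77 to 45.9) in pre-AML 1, 15.7 (7.02 to 41.3) in pre-AML 2 and 551 (267 to 1372) in pre-AML 3. These intervals cover counting error only, since amplified reads are not independent molecules. The log2 difference was 3.76 (standard error 1.11, 95% interval 1.21 to 6.31) with all libraries and 2.17 (1.74 to 2.59) without pre-AML 3, on the log2(FPKM + 1) scale, which understates it for the low control values.

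The relative levels of the adaptors differed from library to library. Hcst was 971, 223 and 983 times Tyrobp in the controls, 32.8 and 34.96 times in pre-AML 1 and pre-AML 2, and 0.864 times in pre-AML 3. The control ratios rest on 1, 5 and 1 Tyrobp reads, so their spread cannot be told from counting error. Pre-AML 3 was the library, 1 of 6, in which the DAP12 gene exceeded the DAP10 gene.

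Of the 6 members, 2 had groups that did not overlap with pre-AML above control, Hcst and Tyrobp, as had 6.14% of the 4412 genes tested. No p-value is given for the members. Their standard errors and intervals come from limma-trend, which combines the spread between a gene's own libraries with that of all genes tested. They are therefore not the spread of that gene alone. All 6 members passed the filter of 1 FPKM on the mean, Tyrobp through the pre-AML libraries alone. Since the set was chosen with this comparison known, nothing is read from this count.

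Leukocyte markers were compared with Tyrobp library by library, and the T and NK cell list was the one of those below whose sum of low genes was above the controls in all 3 pre-AML libraries. Of 16 monocyte and macrophage markers, all listed, Lyz2 was at 2384 FPKM or more in every control, and the other 15, each under 1 FPKM in control, summed to 0.376 to 1.44 FPKM in the controls. That sum was 0.898, 3.95 and 353 FPKM in pre-AML libraries 1 to 3, so pre-AML 1 lay within the control range, and all 16 genes were highest in pre-AML 3. Cd14, Itgam, Ccr2, Cx3cr1 and Fcgr1 were at 0 in all 3 controls. In pre-AML 1, where Tyrobp had 4.85 FPKM, 7 of the 16 were at 0, Cd14 and Cd68 among them. Of the 16, 4 were higher in each pre-AML library than in each control, namely Csf1r, Adgre1, Itgam and Ccr2. That held for 6.14% of the 4412 genes tested, which include 10 of the 16. The share is not a like baseline, since Csf1r, Adgre1 and Itgam passed the filter through pre-AML 3 and Ccr2 was not tested. In pre-AML 1 these 4 genes had 0.0651, 0.116, 0.236 and 0.101 FPKM. The 8 listed T and NK cell markers that were under 1 FPKM in control summed to 0.0656 to 0.716 FPKM in the controls. In pre-AML libraries 1 to 3 they summed to 10.8, 6.35 and 20.8 FPKM. Of the 9 listed, 5 were higher in each pre-AML library than in each control. So were 6.14% of the 4412 genes tested, which include 3 of the 9. Of the 5, Ncr1, Klrb1c and Prf1 were not tested, and Cd2 and Gzma passed the filter through the pre-AML libraries alone. Cd2, Ncr1 and Prf1 were at 0 in all 3 controls. The 6.14% is therefore not a like baseline for the 5. Much of the T and NK cell sum was Gzma, the 1 gene called over the whole table by limma-trend. That call depended on the processing. Without the filter of 1 FPKM, with equal FPKM totals and with limma-voom on recovered reads, 0 genes were called higher. Gzma had at most 0.353 FPKM in the controls and 7.25, 4.61 and 8.90 FPKM in pre-AML libraries 1 to 3. For Cd5, Cd6, Klrd1 and Nkg7 the groups overlapped. The part of monocytes, macrophages, T cells and NK cells in the Tyrobp and Hcst values was not tested.

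The B cell list, like the monocyte list, was within the control range in pre-AML 1 and highest in pre-AML 3. The 8 listed B cell markers summed to 0.135 to 0.391 FPKM in the controls and to 0.154, 1.64 and 16.03 FPKM in pre-AML libraries 1 to 3. The 11 listed neutrophil markers, of cells known for TREM1, summed to 3.19 to 3.66 FPKM in the controls and to 2.18 to 4.998 FPKM in the pre-AML libraries. The 7 listed erythroid markers summed to 2350.5 to 2653 FPKM and 2377 to 2991 FPKM, and the 6 listed mast cell and basophil markers to 16.8 to 25.1 FPKM and 19.2 to 23.8 FPKM, in control and pre-AML.

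**Figure D4:**
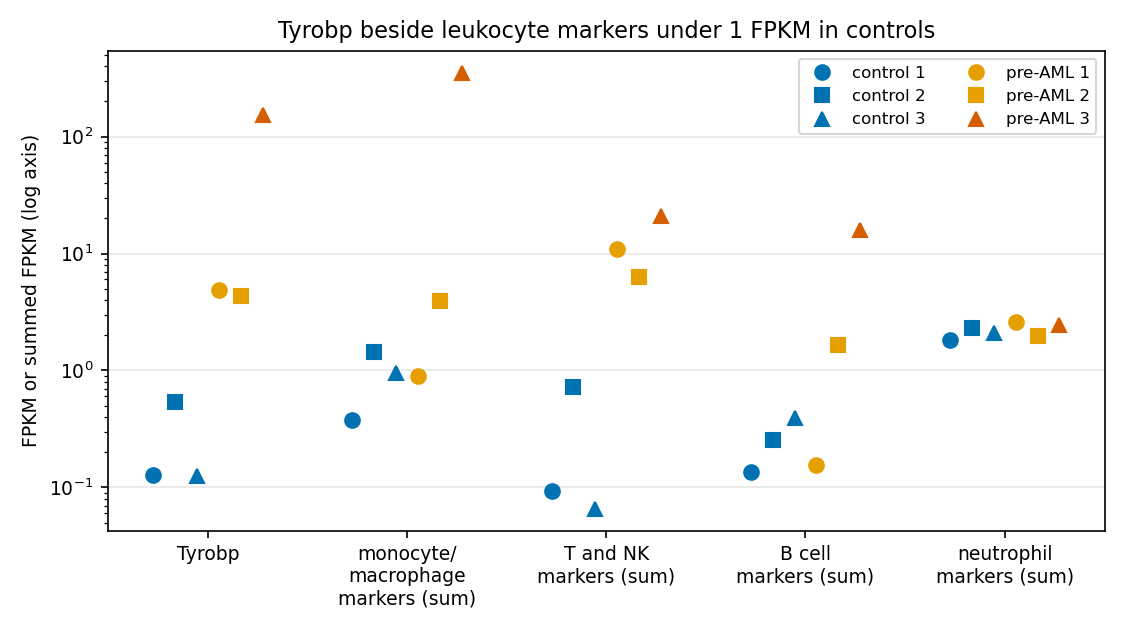
FPKM of Tyrobp and summed FPKM of leukocyte markers whose control mean is under 1 FPKM (log axis), by library, with colors and symbols as in the plot of the 6 genes. Monocyte and macrophage markers stand at 353 FPKM in pre-AML 3 and at 0.898 and 3.95 FPKM in pre-AML 1 and pre-AML 2. The sum of T and NK cell markers, much of it Gzma, is above the controls in all 3 pre-AML libraries.

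The genes with the most similar course differed between DAP12 and TLT1. Likeness was measured as the root mean square difference of log2(FPKM + 1) over the 6 libraries after centering each gene on its mean. Only genes averaging 1 FPKM or more were ranked. The 5 genes nearest to Tyrobp were Cfp (properdin, 0.824), Wfdc17 (0.827), Selplg (the P-selectin ligand, 0.875), Ctss (cathepsin S, 0.917) and Ifi30 (0.941), against a median of 2.53 over the ranked genes. These 5 had 30.2 to 110 FPKM in pre-AML 3 and at most 2.09 FPKM in any other library. They passed the filter through pre-AML 3, and their likeness to Tyrobp rests on that library. Cfp had 0.164 to 0.242 FPKM in the controls, 0.346 and 0.916 FPKM in pre-AML 1 and pre-AML 2 and 105 FPKM in pre-AML 3. The 5 genes nearest to Treml1 were Rhoj (0.029), Capn3 (0.0319), Rnf10 (0.0319), Adipor1 (0.0354) and Alox12 (the platelet 12-lipoxygenase, 0.0371), against a median of 0.206. Alox12 had 1116 to 1289 FPKM in the controls and 957 FPKM in pre-AML 3.

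Further genes of the pathway were taken from 6 lists, with 69 of 75 genes listed and 33 tested. By limma-trend with adjustment over all genes, 0 of the 33 were called in either direction, against 0.0227% of all genes tested, which is 1 gene, and limma-voom called 0 as well. At an unadjusted p under 0.05, 0 of the 33 were higher and 1 was lower, against 2.56% and 6.53% of all genes tested. Without pre-AML 3, limma-trend called 0 genes of the lists, against 0.047% of 4258 genes tested. Nothing particular to the lists is read from these counts. The median log2 difference of the 33 was -0.05, against -0.055 for all genes tested.

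Among other adaptors, control platelets held the ITAM adaptor of the collagen receptor GPVI. Fcer1g, the Fc receptor gamma chain, had 2279.5 to 2701 FPKM in the controls and 2450.0, 2530.5 and 1867 FPKM in pre-AML libraries 1 to 3, with overlapping groups (log2 difference -0.10, standard error 0.16, adjusted p = 0.795 from limma-trend). The B cell receptor adaptors Cd79a and Cd79b were at most 0.292 and 0.529 FPKM in the controls and 23.6 and 23.2 FPKM in pre-AML 3, with overlapping groups (log2 differences 1.79 and 1.86, adjusted p = 0.526 and 0.522 from limma-trend). Of 7 listed ITAM adaptors besides Tyrobp, Fcer1g was the only one with a control mean of at least 1 FPKM. The 3 tested genes of this list had a median log2 difference of 1.79, which rests on pre-AML 3. Without that library Fcer1g alone passed the filter, with a log2 difference of 0.04.

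**Figure D5:**
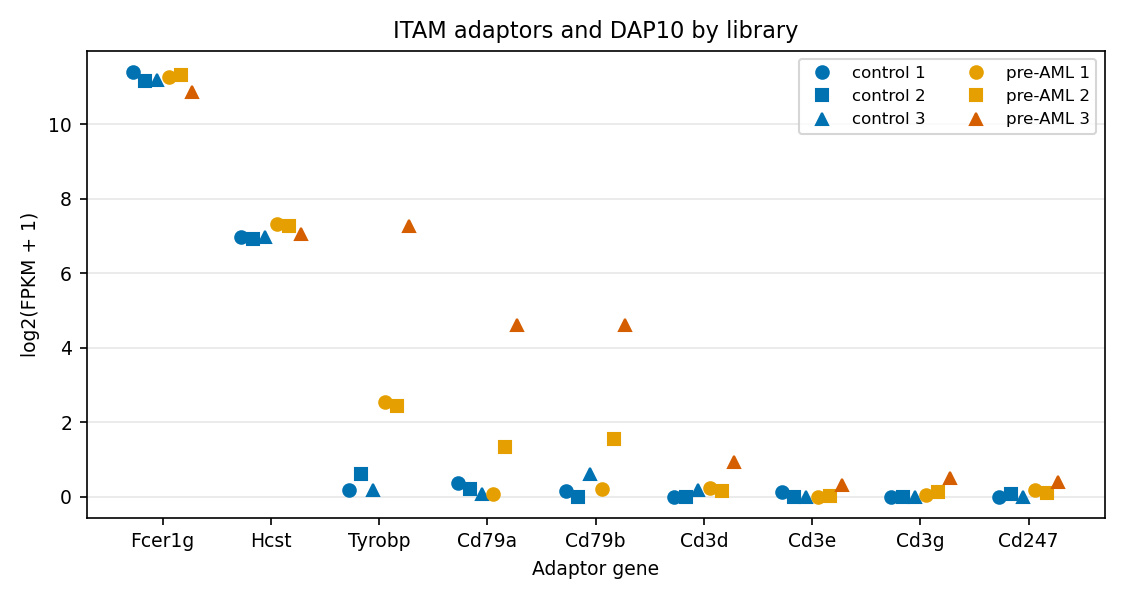
Level as log2(FPKM + 1) of 8 ITAM adaptor genes and of Hcst in each library, with colors and symbols as in the plot of the 6 genes. Fcer1g and Hcst are high in all 6 libraries, and Tyrobp, Cd79a and Cd79b are highest in pre-AML 3.

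Relatives of the receptors were low. Of 11 TREM-locus and CD300 genes, 9 were listed and 2 tested, Trem3 and Treml4, with a median log2 difference of 0.113. Trem3 had 4.63, 4.00 and 4.65 FPKM in the controls and 5.14, 5.07 and 4.70 FPKM in pre-AML libraries 1 to 3, without overlap (log2 difference 0.14, adjusted p = 0.654 from limma-trend). Treml4 had a log2 difference of 0.09 (adjusted p = 0.87 from limma-trend). Cd300ld was listed at 0 in the controls and in pre-AML 1, and had 0.0752 and 4.25 FPKM in pre-AML 2 and pre-AML 3. Of 12 other receptors known to use DAP12 or DAP10, 10 were listed and 0 were tested. The highest of these were Pilrb1, listed at 0 in the controls and at 2.98 FPKM in pre-AML 3, Cd200r4, with at most 1.04 FPKM, and Klra8, listed at 0 in the controls and at 0.829, 0.113 and 0.691 FPKM in pre-AML libraries 1 to 3. The summed level of the 10 was 0.409 to 1.17 FPKM in the controls and 1.62, 0.934 and 4.91 FPKM in pre-AML libraries 1 to 3, so pre-AML 2 lay within the control range.

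Downstream of the adaptors, most tested genes of signaling proteins had log2 differences below 0, and so was the median of all genes tested. Of 25 kinases and effectors, 13 were tested, 2 with a log2 difference above 0 and 11 below. Their median was -0.162, against -0.055 for all genes tested. With equal FPKM totals the median was -0.008, against 0.081 for all genes tested. Without pre-AML 3, when 14 passed the filter, it was -0.105, against -0.027 for all genes tested. The most abundant were the Src-family kinase Lyn, with 202 to 227 FPKM in the controls and 148 to 202 FPKM in the pre-AML libraries, the scaffold Lat and the adaptor Lcp2 (SLP-76), with log2 differences of -0.22, -0.12 and -0.09 and adjusted p of 0.587, 0.761 and 0.814 from limma-trend. Of 8 negative regulators, 7 were tested, with a median of -0.007. Ptpn11 (SHP-2), Dok2 and Dok1 were the most abundant, with log2 differences of -0.10, -0.01 and 0.03 and adjusted p of 0.779, 0.991 and 0.944 from limma-trend.

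Ligands and proteases of the TREM receptors included abundant platelet genes. Of 12 genes, 10 were listed and 8 tested, with a median log2 difference of 0.058. Clu (clusterin, a TREM2 ligand) had a mean of 2371 FPKM over the 6 libraries and a log2 difference of 0.03 (adjusted p = 0.952 from limma-trend). Hmgb1, a proposed TREM1 ligand, had a log2 difference of -0.12 (adjusted p = 0.77 from limma-trend). Adam10, a protease that sheds TREM2, was the gene with an unadjusted p under 0.05. It had 36.6, 28.3 and 31.1 FPKM in the controls and 27.2, 25.6 and 18.3 FPKM in pre-AML libraries 1 to 3, without overlap, and its log2 difference of -0.43 (standard error 0.18) had an adjusted p of 0.522 from limma-trend. Of the 4412 genes tested, 12.8% had all 3 pre-AML libraries below all 3 controls, so nothing particular to Adam10 is read from the lack of overlap. The log2 difference of Adam10 was -0.26 without pre-AML 3 and -0.27 with equal FPKM totals.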

How the data were processed

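Platelets were purified from blood by depleting CD45- and Ter119-positive cells, and cDNA was amplified by SMART-Seq2. The authors mapped reads to mm10 with STAR, used DESeq2, and deposited FPKM values for 14975 genes and 6 libraries. The counting program is not given in the sources used here. Reads were recovered as FPKM times the union exon length (GENCODE M21, 14903 genes) times library size, within 0.05 of a whole read for 86.0% of values. Depth was 11935826 to 17777952 reads, and 3 reads on a gene of 2 kb are 0.0643 to 0.128 FPKM.

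Groups were compared by limma-trend (limma 3.58.1, R 4.3.3) on log2(FPKM + 1) for 4412 genes averaging 1 FPKM or more, two-sided, with Benjamini-Hochberg adjustment over all genes and a threshold of 0.05. The step was tested on simulated data. Members and lists were chosen with earlier results of these data known. Named genes were the members, pathway genes past the threshold, the 3 most abundant genes of each pathway list, and the 5 genes most like Tyrobp and Treml1. Other genes were named after their values were seen. Marker lists covered platelets, monocytes and macrophages, neutrophils, B cells, T and NK cells, erythroid cells, and mast cells and basophils. Protein sequences were not used here. Tools were Python 3.11.15, numpy 2.4.6, pandas 2.3.3 and scipy 1.17.1.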

Additional observations from a re-analysis of the deposited data

How the results depend on the processing

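The count of genes called over the whole table was 1 higher and 0 lower with limma-trend. It was 0 higher with no filter, with equal FPKM totals and with limma-voom on recovered reads, and between 0 and 2 higher with 1 library left out. The 2 were found without pre-AML 3. The genes called in the pathway lists numbered 0 in each direction under all 12 alternatives. Of 72 member values under the alternatives, 67 stayed within 1 SD of the main value, the SD being that between libraries within groups. The setting without a filter and that with a replicate block could not move these values. The SD of Tyrobp was wide through pre-AML 3, and its 2.17 without that library, against 3.76 with all, counted as within 1 SD. The count of 67 is therefore no measure of stability. Hcst was between 0.22 and 0.44 and Tyrobp between 2.17 and 6.07, both above 0 in all 12, while each of the 4 receptors had both signs. The 6.07 of Tyrobp came from limma-voom, with a 95% interval of -6.01 to 18.15, which includes 0. Same-numbered libraries did not deviate together (correlations -0.0431, -0.116 and -0.174), so the numbers were not taken as pairs. With the replicate block, 1 gene was called higher and 0 lower. Low genes such as Tyrobp in control rest on 1 to 5 reads.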
